A study of Homo sapiens with 12 samples.

Results

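The replication-dependent histone genes are the genes whose symbols begin with H2AC, H2BC, H3C or H4C followed by a number, together with H1-1 to H1-5. The rule uses the symbol alone and no measured value. The deposited expression table held 60 of them among 17687 named genes: 5 H1, 14 H2A, 17 H2B, 9 H3 and 15 H4 genes. RefSeq lists 83 genes that the same rule fits. The other 23, of which 13 are pseudogenes, were not analysed here.

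Histones are the proteins around which DNA is wound. H2A, H2B, H3 and H4 form the core of the nucleosome, and H1, the linker histone, binds where DNA enters and leaves it. The replication-dependent genes supply new histones while DNA is copied in S phase. Their messages end in a stem-loop held by the protein SLBP instead of a poly(A) tail, and their transcription is driven in part by NPAT at nuclear sites called histone locus bodies. The genes lie in clusters on chromosomes 6 and 1, and several genes of a class encode the same or nearly the same protein.

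The study measured total RNA of DLD1 and HCT 116, established human colorectal cancer cell lines, on 12 single-colour Affymetrix arrays. Cells of each line had received a control siRNA (siControl) or one named for BRG1 (siBRG1), the ATPase subunit of the SWI/SNF chromatin remodelling complex that the gene SMARCA4 encodes, with 3 arrays for each of the 4 groups. No sample was without an siRNA, and the labels give neither the time after transfection nor any synchronisation of the cells. Whether arrays of 1 group stem from separate cultures is not stated in the labels, and p-values therefore cover only the spread between these arrays, possibly a technical one.

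Values are the authors' log2 expression values, and differences between groups are given in log2 units. The median of all features on an array lay between 6.36 and 6.50. A value below it cannot be told from background here, because no detection calls were used. Probes of near-identical histone genes can take up each other's messages, and the probe sequences were not used here, so the value of any single gene may include RNA of a copy. The way the cDNA was primed is not given in the sources used here, which bears on messages without a poly(A) tail.

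The DNA just before the start of transcription shows what the classes share. RefSeq promoters of build GRCh38.p14, from 250 bases before to 50 bases after each start, were matched for 56 of the 60 genes. The CCAAT motif, searched as CCAAT on both strands, stood in 82.1% of these promoters and in 35.7% of the 27305 promoters of all genes. It was in every matched H1, H2A, H2B and H3 promoter but in only 3 of 13 H4 promoters. The motif TATAAA stood in 69.6% of histone promoters against 12% of all. The octamer ATTTGCAT, a known element of H2B promoters, was in 14 of 17 H2B and 8 of 13 H2A promoters, in none of the H1, H3 and H4 promoters, and in 1.8% of all promoters. The H1 box AAACACA was in 5 of 5 H1 promoters and in 5.76% of all. TATAAA is 1 letter run of many that a TATA box can have, and a match to any of these motifs is a description and not a measured binding site.

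Stretches of 150 bases before the start are shown for the genes that carry the results, 5′ to 3′ on the gene's own strand, with those 4 motifs in capitals on either strand. The first 4 are H1 genes, of which H1-5 and H1-3 differed most between the lines while H1-4 did not pass the test.
H1-5 (chr6:27867589-27867738, minus strand): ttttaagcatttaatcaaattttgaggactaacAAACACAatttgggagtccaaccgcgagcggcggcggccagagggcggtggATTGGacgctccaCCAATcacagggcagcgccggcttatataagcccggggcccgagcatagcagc
H1-3 (chr6:26234988-26235137, minus strand): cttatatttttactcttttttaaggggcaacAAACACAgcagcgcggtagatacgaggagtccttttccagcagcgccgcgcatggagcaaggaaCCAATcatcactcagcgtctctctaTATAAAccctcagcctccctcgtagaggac
H1-2 (chr6:26056471-26056620, minus strand): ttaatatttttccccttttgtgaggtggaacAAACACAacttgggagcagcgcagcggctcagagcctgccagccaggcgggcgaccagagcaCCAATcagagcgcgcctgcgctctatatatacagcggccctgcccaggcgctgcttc
H1-4 (chr6:26156179-26156328, plus strand): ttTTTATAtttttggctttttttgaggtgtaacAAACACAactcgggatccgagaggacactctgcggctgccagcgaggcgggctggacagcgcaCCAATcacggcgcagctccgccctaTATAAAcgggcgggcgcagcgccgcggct
The H1 box and a CCAAT motif were present in all 4 of these windows. These include H1-5 and H1-3, with a large difference between the lines, H1-2, with a smaller one, and H1-4, which did not pass.

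The remaining windows belong to 4 genes with a large difference between the lines and to the pair of genes that passed the test for the siRNA.
H3C7 (chr6:26250636-26250785, minus strand): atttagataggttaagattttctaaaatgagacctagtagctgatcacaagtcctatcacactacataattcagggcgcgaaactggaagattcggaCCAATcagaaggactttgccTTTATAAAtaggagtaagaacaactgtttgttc
H4C13 (chr6:27873535-27873684, minus strand): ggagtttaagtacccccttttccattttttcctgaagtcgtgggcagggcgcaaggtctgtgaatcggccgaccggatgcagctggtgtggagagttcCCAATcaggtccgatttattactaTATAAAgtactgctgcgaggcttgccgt
H2AC8 (chr6:26216771-26216920, plus strand): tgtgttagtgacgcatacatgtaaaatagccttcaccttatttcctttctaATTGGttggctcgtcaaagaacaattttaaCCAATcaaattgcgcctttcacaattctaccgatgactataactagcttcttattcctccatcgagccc
H2BC14 (chr6:27814872-27815021, plus strand): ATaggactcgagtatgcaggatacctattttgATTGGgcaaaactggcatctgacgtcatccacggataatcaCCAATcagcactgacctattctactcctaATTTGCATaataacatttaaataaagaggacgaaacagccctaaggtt
H2AC21 (chr1:149887966-149888115, minus strand): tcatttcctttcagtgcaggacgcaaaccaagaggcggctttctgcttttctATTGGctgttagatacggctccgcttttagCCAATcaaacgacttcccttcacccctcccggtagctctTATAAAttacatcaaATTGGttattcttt
H4C9 (chr6:27139132-27139281, plus strand): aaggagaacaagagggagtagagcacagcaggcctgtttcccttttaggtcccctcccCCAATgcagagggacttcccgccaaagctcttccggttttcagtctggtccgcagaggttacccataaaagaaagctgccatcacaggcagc
The capitals that open the H2BC14 window are the end of a motif that begins before it. H4C13 and H4C9 are among the 3 H4 genes with a CCAAT motif. No promoter was matched for H3C11.

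SMARCA4, the target of the siRNA, read 10.31, 9.95 and 10.29 on the DLD1 siControl arrays and 6.29, 6.55 and 6.31 on the DLD1 siBRG1 arrays. In HCT 116 it read 10.12, 10.15 and 9.59 with siControl and 6.78, 6.39 and 7.03 with siBRG1. Every siBRG1 array lay below every siControl array, and the exact two-sided permutation p was 0.1 within a line and 0.005 over both lines, the smallest that each design allows. Of 11 epithelial markers, 9 had group means above every array median in each group. The summed log2 values of the 11 ran from 136.98 to 139.35 with siControl and from 136.76 to 139.71 with siBRG1 in DLD1, and from 121.78 to 123.44 and from 119.60 to 121.17 in HCT 116. Of the other lists, 1 of 5 fibroblast, at most 2 of 6 immune and 0 of 5 endothelial markers did. In bulk RNA, fewer cells in S phase and less histone RNA per cell cannot be told apart.

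The first comparison set HCT 116 against DLD1 under the control siRNA. Histone genes were lower in HCT 116 more often than higher. With limma at an adjusted p under 0.05 over all named genes, 17 of the 60 were lower and 2 were higher, or 31.7% in all against 27.6% of all named genes. The share called lower was 28.3% against 14% of all genes. The median difference, HCT 116 minus DLD1, was -0.40 over the histone genes and 0.03 over all genes. The same comparison on the siBRG1 arrays called 25 lower and 1 higher, or 43.3% against 30.8% of all genes, with a median of -0.54 against 0.03. In that comparison the share called lower was 41.7% against 16.8%. Of all genes, 13.6% were called higher with siControl and 14% with siBRG1. The groups did not overlap for 33 lower and 4 higher histone genes with siControl, against 19.7% and 20.3% of all genes, and for 31 lower and 2 higher with siBRG1, against 21.5% and 20.9%. The 2 comparisons use separate arrays but share the estimate of each gene's spread, and DLD1 arrays of the same number deviated together. Of the histone genes, 16 were called lower in both. The share of all genes called lower in both was not counted. On every array, 10 of the 60 genes lay below every array median, among them H1-1, H3C3 and H4C6, so that a difference in these could hardly be seen. H2BC3, also among these 10, was nevertheless called lower with siBRG1. Its group means there were 4.15 in DLD1 and 3.62 in HCT 116, values that cannot be told from background. By group means, 13 lay below it in HCT 116 with siControl and 15 with siBRG1, or 21.7% and 25%, against 46.7% and 47.1% of all genes.

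**Figure D1:**
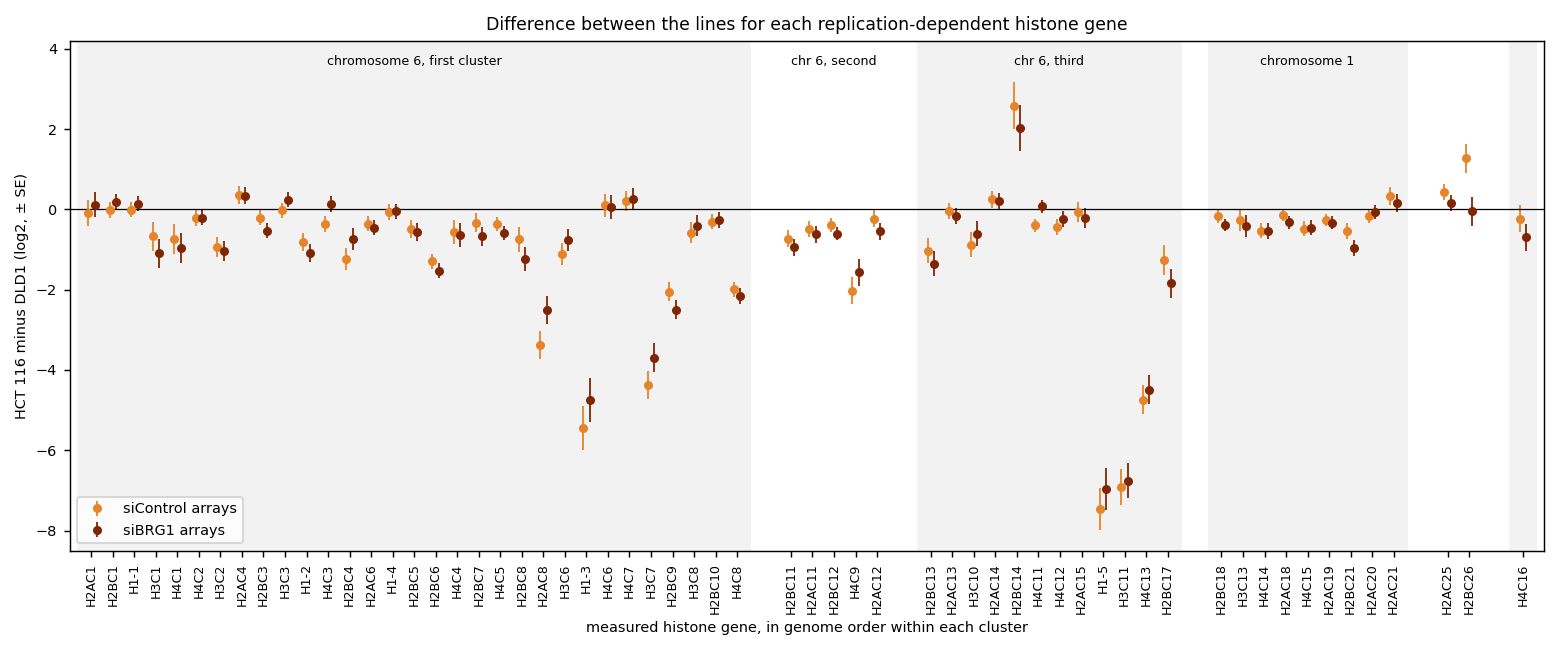
Each point is the log2 difference HCT 116 minus DLD1 of 1 histone gene, with its limma standard error, on the siControl arrays (light) and on the siBRG1 arrays (dark), 3 arrays a group. Genes stand in genome order within each cluster. H1-5, H3C11 and H4C13, neighbours in the third chromosome 6 cluster, lie between -7.46 and -4.49. H1-3 and H3C7 also lie far below 0. The median over all 60 genes is -0.40 with siControl and -0.54 with siBRG1.

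The linker histones divided into 3 kinds. H1-5, a somatic linker histone, read 14.69, 14.60 and 14.80 on the DLD1 siControl arrays and 5.69, 8.56 and 7.46 on the HCT 116 siControl arrays. With siBRG1 it read 14.75, 14.57 and 13.80 in DLD1 and 6.76, 7.56 and 7.89 in HCT 116. The lines were far apart on every array, and the spread between HCT 116 arrays was wide. The difference was -7.46 ± 0.52 (SE, n = 3 arrays a group, limma adjusted p = 2.82e-08) with siControl and -6.97 ± 0.52 (limma adjusted p = 5.71e-08) with siBRG1. Ordered from the most negative difference among all 17687 genes, H1-5 took place 19 in the first comparison and place 29 in the second.

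H1-3, another somatic linker histone, read 11.94, 11.07 and 10.82 on the DLD1 siControl arrays and 5.31, 6.23 and 5.98 on the HCT 116 siControl arrays. With siBRG1 it read 11.87, 10.92 and 9.52 in DLD1 and 7.23, 5.64 and 5.21 in HCT 116. In HCT 116 siControl all 3 values lay below every array median, so the difference of -5.44 ± 0.55 (SE, limma adjusted p = 1.95e-06) ends at values that cannot be told from background. With siBRG1 the difference was -4.74 ± 0.55.

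H1-2 was lower by a smaller amount. Its values were 12.09, 11.99 and 11.96 in DLD1 siControl and 10.99, 11.34 and 11.28 in HCT 116 siControl, which do not overlap. The difference was -0.81 ± 0.23 (SE, limma adjusted p = 0.0135), and -1.08 ± 0.23 on the siBRG1 arrays. H1-4 read 15.67, 15.31 and 15.40 in DLD1 siControl and 15.44, 15.39 and 15.35 in HCT 116 siControl, and the groups overlapped. Its difference was -0.06 with a 95% interval from -0.48 to 0.36. H1-1, the linker histone of few tissues, read between 3.98 and 4.71 on all 12 arrays, below every array median.

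**Figure D2:**
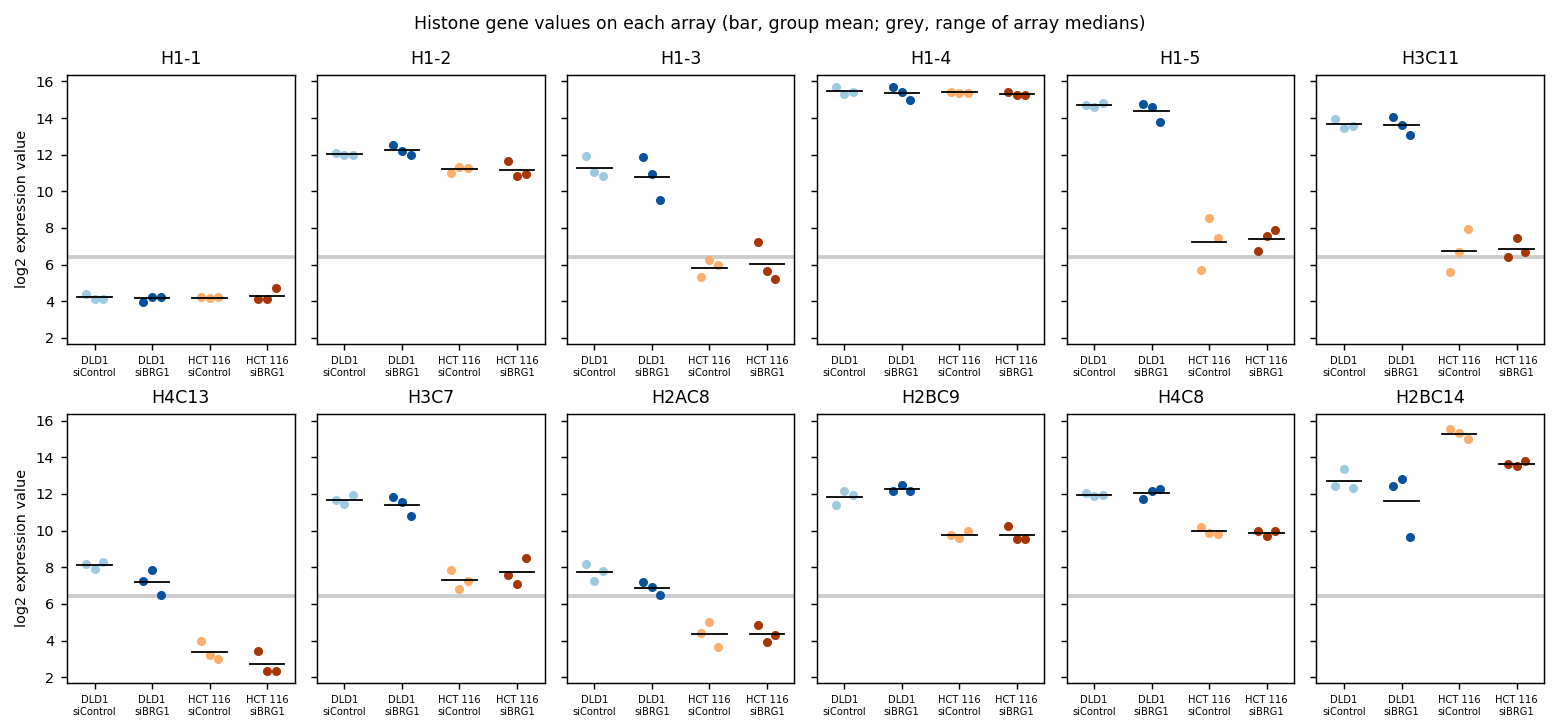
Log2 expression values of 12 histone genes on each of the 12 arrays, with the group mean as a bar and the range of array medians as a grey band. H1-5, H3C11, H1-3, H4C13 and H3C7 are higher on every DLD1 array than on any HCT 116 array, H1-4 and H1-1 are level across the groups, and H2BC14 is higher in HCT 116.

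Among the H3 genes, 4 of 9 were lower in HCT 116 with siControl and 5 of 9 with siBRG1, against 14% and 16.8% of all genes. None was higher. H3C11, which encodes the canonical core histone H3, read 13.93, 13.47 and 13.54 in DLD1 siControl and 5.61, 6.68 and 7.93 in HCT 116 siControl. With siBRG1 it read 14.08, 13.65 and 13.09 in DLD1 and 6.42, 7.46 and 6.67 in HCT 116. All DLD1 arrays were high, and HCT 116 arrays scattered around the array medians. The difference was -6.91 ± 0.45 (SE, limma adjusted p = 1.21e-08) with siControl and -6.75 ± 0.45 with siBRG1. H3C7, another gene for the canonical H3, read 11.65, 11.43 and 11.94 in DLD1 siControl and 7.83, 6.80 and 7.24 in HCT 116 siControl, a difference of -4.38 ± 0.35 (SE, limma adjusted p = 1.58e-07). H3C6 differed by -1.11 ± 0.27 and H3C2 by -0.94 ± 0.25, both also called with siBRG1. H3C1 was called only on the siBRG1 arrays, at -1.09 ± 0.36 (limma adjusted p = 0.0327), and that call was lost without DLD1 siBRG1 replicate 1 (-0.66) or 2, or without HCT 116 siBRG1 replicate 1 or 3.

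Nearly all H4 genes encode the same protein. Of the 15, 3 were lower in HCT 116 with siControl and 5 with siBRG1, against 14% and 16.8% of all genes. H4C13 read 8.17, 7.93 and 8.26 in DLD1 siControl and 3.95, 3.22 and 2.97 in HCT 116 siControl. With siBRG1 it read 7.26, 7.85 and 6.49 in DLD1 and 3.43, 2.36 and 2.36 in HCT 116, so that every HCT 116 value lay below the array medians and every DLD1 value above the median of its own array. The difference was -4.74 ± 0.35 (SE, limma adjusted p = 6.62e-08) with siControl. H4C8 read 12.04, 11.86 and 11.97 against 10.21, 9.88 and 9.82, a difference of -1.99 ± 0.19. H4C9 read 9.79, 9.29 and 10.05 against 7.78, 8.0 and 7.26, a difference of -2.03 ± 0.34. With siControl both of these lay above the array medians in either line, and their groups did not overlap.

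Of the 14 H2A genes, 1 was lower with siControl and 2 with siBRG1, or 7.14% and 14.3%, against 14% and 16.8% of all genes. H2AC8, a gene for the canonical core histone H2A, read 8.16, 7.24 and 7.81 in DLD1 siControl and 4.42, 5.0 and 3.65 in HCT 116 siControl. The HCT 116 values all lay below the array medians, and the difference was -3.38 ± 0.34 (SE, limma adjusted p = 1.73e-06). With siBRG1 it was -2.51 ± 0.34. H2AC11 was called only on the siBRG1 arrays, at -0.62 ± 0.21.

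The H2B genes differed in both directions. Of 17, 6 were lower and 2 higher in HCT 116 with siControl, and 10 were lower and 1 higher with siBRG1. The shares of all genes were 14% lower and 13.6% higher with siControl, and 16.8% and 14% with siBRG1. H2BC3, called lower with siBRG1 only, lay below every array median. H2BC9, a gene for the canonical core histone H2B, read 11.38, 12.17 and 11.94 in DLD1 siControl and 9.77, 9.59 and 9.98 in HCT 116 siControl, which do not overlap. The difference was -2.05 ± 0.24 (SE, limma adjusted p = 8.94e-06). The other H2B genes called lower with siControl were H2BC6 at -1.29, H2BC17 at -1.27, H2BC4 at -1.24, H2BC13 at -1.03 and H2BC11 at -0.73. All but H2BC4 were also called with siBRG1.

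H2BC14 ran the other way. It read 12.43, 13.36 and 12.35 in DLD1 siControl and 15.57, 15.33 and 14.99 in HCT 116 siControl, with every HCT 116 array above every DLD1 array. The difference was 2.58 ± 0.58 (SE, limma adjusted p = 0.00315). With siBRG1 it was 2.03 ± 0.58, and 1.03 without DLD1 siBRG1 replicate 3, which read 9.63 where the other 2 read 12.41 and 12.83. H2BC26 was higher by 1.27 ± 0.36 (SE, limma adjusted p = 0.0159) with siControl, and its difference was -0.05 ± 0.36 with siBRG1. Leaving out 1 array at a time, its siControl difference ran from 1.09 to 1.61, and the call was lost without DLD1 siControl replicate 1 or 2 or HCT 116 siControl replicate 2 or 3.

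Some of the large differences were those of neighbouring genes. H1-5, H3C11 and H4C13 are consecutive histone genes of the third cluster on chromosome 6, by RefSeq order. The other 9 measured genes of that cluster had a median difference of -0.40 with siControl. Of them 2 were called lower and 1 higher, against 14% and 13.6% of all genes. In the first cluster the run from H2AC8 to H4C8 holds 10 measured genes. Of these, 4 (H2BC10, H3C8, H4C6 and H4C7) lay below every array median in all 4 groups. The other 6, H2AC8, H3C6, H1-3, H3C7, H2BC9 and H4C8, were all called lower in HCT 116, with siControl and with siBRG1. Over the 10 genes the median difference was -1.55 with siControl and -1.46 with siBRG1. The remaining 21 genes of that cluster had medians of -0.36 and -0.57, with 4 and 8 called lower, against 14% and 16.8% of all genes. Both runs were picked after their values were seen, and no test was made of them. H4C9 and H2BC14, with differences of -2.03 and 2.58, lie outside them. In the small second cluster of chromosome 6, all 5 genes had a difference below 0 in both comparisons, against 47% and 47.3% of all genes. Of these 5, 2 were called lower with siControl and 4 with siBRG1, against 14% and 16.8%. In the main chromosome 1 cluster, 0 of 9 were called with siControl and 2 of 9 with siBRG1, against 27.6% and 30.8% of all genes. Within the first cluster also lie 6 measured genes that are no replication-dependent histone genes. None of them was called with siControl, against 27.6% of all genes, and their siControl differences ran from -0.59 to 0.56. The highest was that of H1-6, whose group means lay below every array median and cannot be told from background. The levels of the others are not given here. So few genes cannot show whether the line difference is particular to histone genes, which was not tested.

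Many H2A and H2B genes lie head to head, with neighbouring starts and transcription running outward. RefSeq order gave 8 such pairs in which both genes were measured, with 215 to 248 bases between the starts. Partners often differed unequally between the lines. In the pair of H2AC14 and H2BC14, the siControl difference was 0.25 ± 0.20 for H2AC14 and 2.58 ± 0.58 for H2BC14. In the pair of H2AC8 and H2BC8 it was -3.38 ± 0.34 for H2AC8, whose HCT 116 values lay below every array median, and -0.75 ± 0.30 for H2BC8. In the pair of H2AC13 and H2BC13 it was -0.04 ± 0.20 for H2AC13 and -1.03 ± 0.31 for H2BC13. With siBRG1 the HCT 116 mean of H2BC13 lay below every array median.

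The line difference of one partner minus that of the other, averaged over both siRNAs, was tested in each of the 8 pairs by an exact two-sided permutation of the arrays within each siRNA, a test chosen after the values were seen. It was -2.08 for H2AC14 minus H2BC14, 1.95 for H2BC8 minus H2AC8 and -1.09 for H2BC13 minus H2AC13, each with an exact p of 0.005, the smallest this design allows, and 0.0133 after Benjamini-Hochberg adjustment over the 8 pairs. H2BC21 minus H2AC20 was -0.64 (exact p = 0.01, adjusted 0.02), H2BC11 minus H2AC11 was -0.29 (exact p = 0.02, adjusted 0.032) and H2BC4 minus H2AC6 was -0.58 (exact p = 0.025, adjusted 0.0333). The pairs of H2AC25 with H2BC26 and of H2AC1 with H2BC1 had exact p of 0.445 and 0.73. Both genes of the last pair lay below every array median. The arrays were shuffled separately for each siRNA, while DLD1 arrays of the same number deviated together. The exact p-values do not allow for this and may be too small.

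**Figure D3:**
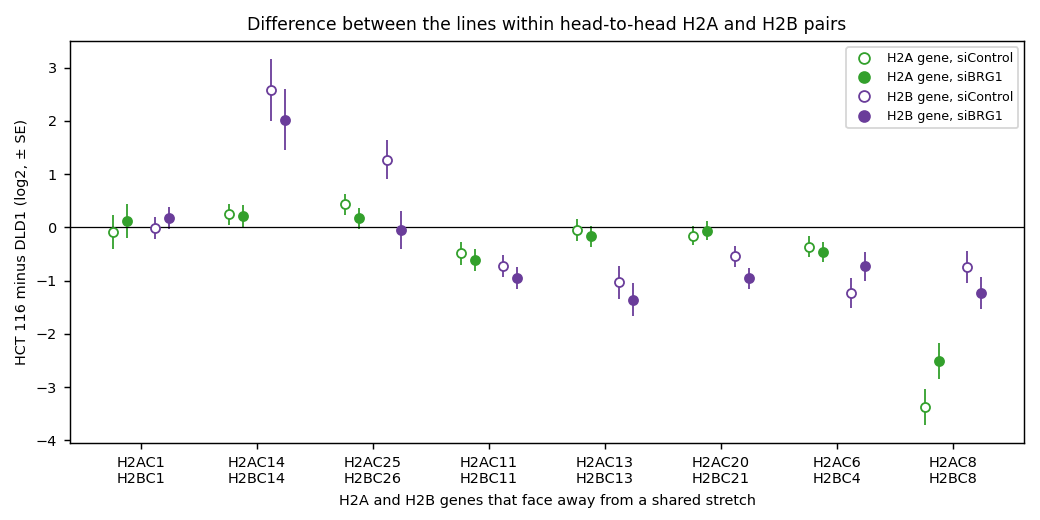
Log2 difference HCT 116 minus DLD1 with its limma standard error for the H2A gene (green) and the H2B gene (purple) of 8 head-to-head pairs, on the siControl arrays (open) and the siBRG1 arrays (filled). H2BC14 sits at 2.58 and 2.03 above its partner near 0, and H2AC8 at -3.38 and -2.51 below its partner.

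The second question was what siBRG1 did to these genes within each line. In DLD1 none of the 60 passed the test with limma, against 0.198% of all named genes (35 genes). At an unadjusted p under 0.05, 7 histone genes stood out, against 10.5% of all genes. In HCT 116 none of the 60 passed either, against 6.95% of all genes (1230 genes), and 9 had an unadjusted p under 0.05, against 20.4%. The median change, siBRG1 minus siControl, was -0.12 in DLD1 against 0.01 over all genes, and -0.15 in HCT 116 against -0.01. With the numbered arrays as a block within each line, 4 histone genes were called in HCT 116. The share of all genes called with that block is not given here.

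Small negative changes were common. In DLD1, 44 of 60 genes had a change below 0 (73.3%, against 47.9% of all genes), and in HCT 116 48 of 60 (80%, against 51.9%). These counts move with the scale: with arrays centred on their medians they were 51 of 60 in DLD1 (85%, against 53.7% of all genes) and 36 of 60 in HCT 116 (60%, against 44.1%). In 35 of 60 the change was below 0 in both lines (58.3%, against 30.3%). In DLD1 this rested on 1 array. DLD1 siBRG1 replicate 3 was the lowest of the 6 DLD1 arrays in 35 of the 60 histone genes, or 58.3%, and in 17.9% of all genes. Its median distance from the siControl mean was -0.42, while the other siBRG1 arrays stood at 0.04 and -0.05. Without it, 31 of 60 changes in DLD1 lay below 0 (51.7%, against 47.8%), the median was -0.0098, and 27 of 60 (45%, against 29.3%) lay below 0 in both lines. In HCT 116 the siBRG1 arrays stood at -0.07, -0.26 and -0.23. The median of the 11 epithelial markers stood at -0.24, -0.46 and -0.36 on the same arrays, and its part in the result was not tested.

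**Figure D4:**
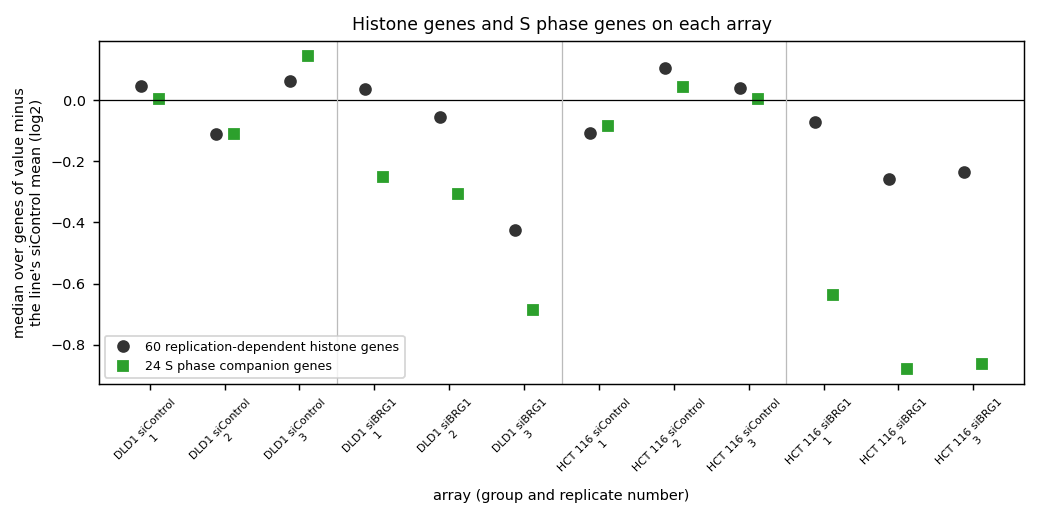
For each array, the median over genes of the log2 value minus the siControl mean of the same line, for the 60 histone genes (circles) and for 24 genes induced with S phase (squares). The histone median is lowest, at -0.42, on DLD1 siBRG1 replicate 3, while the S phase median stands between -0.64 and -0.88 on the HCT 116 siBRG1 arrays and at -0.69 on that DLD1 array.

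By class, all 15 H4 genes had a change below 0 in HCT 116, with a median of -0.15, but 12 of 15 after a further quantile normalization and 10 of 15 with arrays centred on their medians. In DLD1 13 of 15 did. The H2B genes had 15 of 17 below 0 in HCT 116 and 9 of 17 in DLD1. The H2A genes had 12 of 14 and 11 of 14. Among the H3 genes 4 of 9 lay below 0 in HCT 116 and 7 of 9 in DLD1, and among the H1 genes 2 of 5 and 4 of 5. None of these genes passed the test in its line.

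**Figure D5:**
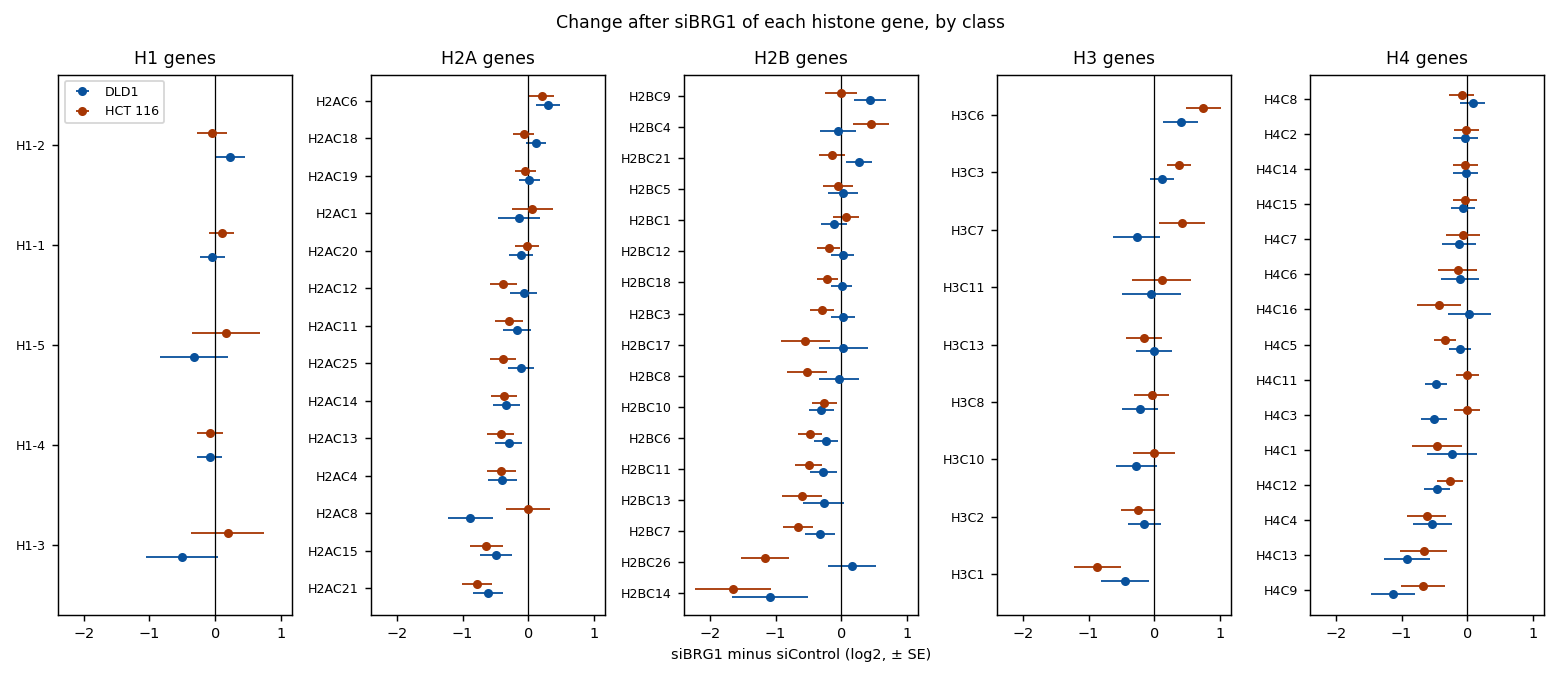
Log2 change siBRG1 minus siControl with its limma standard error for each of the 60 histone genes in DLD1 (blue) and HCT 116 (red), by class and ordered by the mean of both changes. All 15 H4 genes lie below 0 in HCT 116 on the deposited scale (10 with arrays centred on their medians), and H2BC14 and H2BC26 lie lowest there, at -1.65 and -1.16.

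Averaged over both lines, 2 of 60 genes were called with limma (3.33%, against 8.68% of all genes), both of them lower, against 4.68% of all genes called lower. H2AC21 read 11.84, 11.44 and 11.37 in DLD1 siControl and 11.27, 11.10 and 10.45 in DLD1 siBRG1. In HCT 116 it read 11.99, 12.07 and 11.58 with siControl and 11.19, 11.05 and 11.06 with siBRG1. It was the 1 histone gene whose siBRG1 arrays lay below every siControl array in each line, which 2.58% of all genes did. H2AC21, an H2A gene of the chromosome 1 cluster, fell by 0.69 ± 0.16 (SE, limma adjusted p = 0.0158), and it was called without any 1 of the 12 arrays. Its changes were -0.61 in DLD1 and -0.78 in HCT 116, where the limma adjusted p of 0.0524 missed the threshold.

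H4C9 read 9.79, 9.29 and 10.05 in DLD1 siControl and 8.22, 9.02 and 8.47 in DLD1 siBRG1. In HCT 116 it read 7.78, 8.0 and 7.26 with siControl and 7.84, 6.48 and 6.70 with siBRG1. The DLD1 groups did not overlap, and the HCT 116 groups did. Averaged over both lines H4C9 fell by 0.91 ± 0.24 (SE, limma adjusted p = 0.0287), a call that held in 5 of the 12 fits that left out 1 array, with limma adjusted p from 0.00507 to 0.0754. It was lost without DLD1 siControl replicate 1 or 3, DLD1 siBRG1 replicate 1 or 3, HCT 116 siControl replicate 2 or HCT 116 siBRG1 replicate 2 or 3. DLD1 arrays of the same number deviated together, while in HCT 116 no pairing was assumed. A block by number within both lines was fitted as an alternative. The share of all genes called with it is not given here, and it called 8 histone genes in this average. H2BC14 and H4C13 were among those, with limma adjusted p of 0.0152 and 0.0225 with the block and of 0.0519 and 0.0653 without it.

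H2BC14 changed most in HCT 116 by size. It read 15.57, 15.33 and 14.99 with siControl and 13.61, 13.55 and 13.79 with siBRG1, which do not overlap. The change was -1.65 ± 0.58 (SE, limma adjusted p = 0.108). In DLD1 it was -1.09 ± 0.58, and -0.09 without DLD1 siBRG1 replicate 3. In the fit without that array the HCT 116 change had a limma adjusted p of 0.00236. H2BC26 read 8.45, 9.41 and 9.49 with siControl in HCT 116 and 7.44, 8.14 and 8.27 with siBRG1, a change of -1.16 ± 0.36 (SE, limma adjusted p = 0.0718). H3C1 changed by -0.87 ± 0.36 in HCT 116.

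The largest positive changes were smaller. In HCT 116 these were 0.74 for H3C6, 0.45 for H2BC4 and 0.42 for H3C7, and in DLD1 0.44 for H2BC9, 0.40 for H3C6 and 0.30 for H2AC6. In DLD1 the most negative after H4C9 (-1.14) and H2BC14 were those of H4C13 (-0.92) and H2AC8 (-0.88). Their DLD1 siControl means were 8.12 and 7.74, above every array median. Their lowest DLD1 siBRG1 values, 6.49 and 6.48, were near the array medians. Groups did not overlap for 8 lower and 1 higher histone gene in DLD1, against 7.19% and 8.33% of all genes. In HCT 116 they did not overlap for 17 lower and 1 higher, against 13% and 11.9%. Of these HCT 116 genes, H2BC3, H4C16 and the higher one, H3C3, lay below every array median. None of the 60 passed the test of a different response between the lines (limma, against 0.334% of all genes), and 1 had an unadjusted p under 0.05, against 8.99% of all genes. The widest difference of responses, HCT 116 minus DLD1, was that of H2BC26 at -1.32 (95% interval -2.42 to -0.22, limma adjusted p = 0.422).

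Genes that make and handle these histones were read beside them. Of 24 measured genes whose RNA rises with S phase, such as those of the replicative helicase, 15 fell in HCT 116 with siBRG1 (62.5%, against 6.95% of all genes) and none passed in DLD1 (against 0.198%), with medians of -0.78 and -0.41. GINS2, a subunit of the helicase, fell by 1.66 ± 0.26 in HCT 116 (limma adjusted p = 0.00146). FEN1, a flap nuclease, fell by 1.48 ± 0.20, and PCNA, the polymerase clamp, fell by 0.77 ± 0.21. By array, the median of these genes stood at -0.64, -0.88 and -0.86 from the siControl mean on the HCT 116 siBRG1 arrays, where the histone genes stood at -0.07, -0.26 and -0.23. On DLD1 siBRG1 replicate 3 it stood at -0.69, against -0.25 and -0.31 on the other DLD1 siBRG1 arrays, and 21 of 24 were at their lowest of the line there. The part of S phase in the histone values was not tested.

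Of 30 measured histone chaperones and import factors, 5 fell in HCT 116 with siBRG1 and none rose, or 16.7%, against 6.95% of all genes. CHAF1A and CHAF1B, subunits of the chromatin assembly factor that loads new histones behind the replication fork, fell by 1.13 ± 0.19 and 0.91 ± 0.19. ASF1B, which hands H3 and H4 to it, fell by 1.22 ± 0.22 (limma adjusted p = 0.00445). MCM2, which stands in the S phase list too, and NAP1L4, a carrier of H2A and H2B, were the other members called. The same 5 were called in the average over both lines (16.7%, against 8.68% of all genes), and none passed in DLD1 (against 0.198%).

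Of 37 measured factors that transcribe, process or degrade histone messages, 1 rose in HCT 116, ZNF473, which acts in the cutting of histone messages, by 0.88 ± 0.19 (limma adjusted p = 0.0137). That is 2.7% of the list, against 6.95% of all genes. In DLD1 CSTF2, a cleavage factor subunit, fell by 1.55 ± 0.28 (limma adjusted p = 0.0398). It was the only 1 called there, or 2.7%, against 0.198% of all genes. In the average over both lines 4 of the 37 were called higher and 3 lower, or 18.9%, against 8.68% of all genes. SLBP, the stem-loop binding protein, fell by 0.61 ± 0.15 in the average over both lines (limma adjusted p = 0.0215). TENT4A, a nucleotidyl transferase, fell by 0.93 ± 0.20 there, and CDC73, CPSF2, FIP1L1 and ZNF473 rose by 0.44 to 0.64. NPAT, HINFP, an activator of H4 genes, and CASP8AP2, a protein of histone locus bodies, did not pass the test in either line, with changes of 0.38, 0.25 and -0.24 in DLD1 and -0.31, 0.17 and -0.54 in HCT 116.

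Between the lines with siControl, 6 of those 37 factors were higher in HCT 116 and 1 lower, or 18.9%, against 27.6% of all genes. HINFP was higher by 0.91 ± 0.22, ERI1, an exonuclease that trims histone messages, by 1.37 ± 0.21, and CDC73, a subunit of the PAF1 complex, by 1.73 ± 0.19. SLBP differed by -0.17 ± 0.21 and NPAT by 0.55 ± 0.20 (limma adjusted p = 0.0580), neither of them called. The median of the S phase genes differed by 0.07 between the lines with siControl, where that of the histone genes differed by -0.40. Of the 24 S phase genes, 3 were called higher and 3 lower, against 13.6% and 14% of all genes.

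Of 17 measured histone variants made outside S phase or in single tissues, 2 fell in HCT 116 with siBRG1, or 11.8%, against 6.95% of all genes. H2AZ1, the main H2A.Z gene, fell by 0.90 ± 0.20 (limma adjusted p = 0.0136) and MACROH2A1, a large H2A variant, by 0.60 ± 0.16. H2AX, the variant marked at DNA breaks, fell by 0.57 ± 0.15 in the average over both lines. Between the lines with siControl 4 were higher in HCT 116 and 1 was lower, or 29.4%, near the 27.6% of all genes. H3-3B, a gene for the replacement histone H3.3, was higher by 1.29 ± 0.17 (limma adjusted p = 2.16e-05) and MACROH2A2 by 2.44 ± 0.23, while no H3C gene was higher in HCT 116.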

How the data were processed

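RNA of 12 samples was labelled with biotin and hybridised to 1 array each, per the labels' protocols. The table the authors deposited holds log2 values. Per the submitters' processing notes they ran RMA in Affymetrix Power Tools. Neither a version nor a build is given in the sources used here. Values reach 18.05, above what plain RMA of a 16-bit scan can give, so the scale holds a step the labels do not name.

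Of 21448 features, 17709 had 1 gene symbol in the array's annotation, brought up to date through RefSeq, 0 had several and 3739 had none. For 20 genes with several features, none of them a replication-dependent histone gene, the one with the highest mean was taken. Samples were grouped by title. For 4 HCT 116 samples the source name gives a number for the line or the siRNA that departs from the title.

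limma 3.58.1 in R 4.3.3 fitted 4 group means over 12 arrays (8 residual and 6.66 prior degrees of freedom), with Benjamini-Hochberg adjustment over 17687 genes and a call at an adjusted p under 0.05. The steps were tested on simulated data. The genes, the gene lists, the rule for naming genes (those called, the 3 largest changes each way, and fixed regulators) and the tests were chosen with earlier results of these data known. No set test was made.

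The titles number the arrays 1 to 3 in each group. Over genes, the deviations of a DLD1 siControl array and the siBRG1 array of its number had correlations of 0.49, 0.46 and 0.29. Each is over 0.1, so the numbers were taken to pair these arrays, with the block fitted only as an alternative. That pairing comes from the data and not from the labels. In HCT 116 the correlations were 0.30, 0.15 and 0.03, and no pairing was assumed. Alternatives were the number as a block, 2 groups alone, other scalings, filters on level, other priors, array weights, a stricter threshold and each array left out. Promoters came from RefSeq's GRCh38.p14 table. The number of arrays limits the precision.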

Additional observations from a re-analysis of the deposited data

How the results depend on the processing

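With siControl, the fall of H1-5, H3C11, H1-3, H4C13, H3C7, H2AC8, H2BC9, H4C8 and H4C9 in HCT 116 was called under every alternative that kept the gene (a filter at the median level drops H4C13 and H2AC8), and 13 of the 19 called histone genes passed without any 1 array. With siBRG1 18 of 26 did. Leaving out 1 array at a time, called histone genes ran from 14 to 21 (median -0.48 to -0.32) with siControl and from 18 to 30 (median -0.66 to -0.46) with siBRG1, and 17 passed at an adjusted p under 0.01 with siBRG1. For the siRNA, such fits called 0 in DLD1 (median -0.27 to -0.0098), 0 to 3 in HCT 116 (median -0.29 to -0.12), 1 to 5 in the average (median -0.23 to -0.09) and 0 in the difference of responses (median -0.19 to 0.0065). The shares of all genes called in these fits are not given here. SMARCA4 changed by -3.91 to -3.74 in DLD1 and by -3.40 to -3.05 in HCT 116.

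In HCT 116, where the main count was 0, limma called 4 with the replicate block within lines, 1 with a block shared by the lines, 1 with the 2 groups alone, 2 among genes above the median level, 1 above the lower quartile, 1 with a trended and robust prior, 4 with array weights, 1 without both HCT 116 arrays numbered 1 (median -0.30 there) and 4 without both DLD1 arrays numbered 3. In the average, where it was 2, it called 8 with the block within lines, 5 with the shared block, 6 above the median level, 10 with array weights, 0 at an adjusted p under 0.01, 5 without both HCT 116 arrays numbered 1 and 1 without both DLD1 arrays numbered 3. The shares of all genes called under these settings are not given here. In the main fit they were 6.95% in HCT 116 and 8.68% in the average. The cause was not tested. Both settings that leave out 2 arrays were chosen after seeing the data. The block changed no call count in DLD1 or in the difference of responses, could not be fitted within lines for the comparisons of the lines, and the 2 groups alone could not be fitted for the average and the difference.

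Centring the arrays on their medians turned the median difference of responses from -0.08 to 0.02. The difference of responses of H2BC14 reversed to 0.044 without DLD1 siBRG1 replicate 2 (-1.56 to 0.044 with 1 array left out), and that of H1-3 to -0.17 without both HCT 116 arrays numbered 1. The change of CASP8AP2 in DLD1 reversed to 0.024 without DLD1 siBRG1 replicate 1 (-0.58 to 0.024 with 1 array left out), and that of H3-3B in HCT 116 to -0.00299 without HCT 116 siControl replicate 1 (-0.00299 to 0.090 with 1 array left out) and to -0.017 without both HCT 116 arrays numbered 1. Values below the array medians cannot be told from background, which limits the size of the falls that end there.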
